A study of Mus musculus with 6 samples.

Results

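Neurons of the olfactory bulb from olfactory trained mice were compared directly with neurons from naris occluded mice. The neurons were the cells that carry a name in the deposited neuron clustering and whose library label is 1 of 2 trained or 1 of 2 occluded libraries. There were 14227 of them, with 2982 and 3412 neurons after occlusion and 5056 and 2777 after training, out of 21746 neurons and 51426 annotated cells in 6 libraries. All mice were C57BL/6NJ at 14 weeks of age with no transgene, and each library came from a pool of 3 mice, males in replicate 1 and females in replicate 2. Trained mice were water deprived and learned to discriminate odors for a water reward, over 6 weeks. Occluded bulbs came from the plugged side of mice with a single blocked nostril for 6 weeks. The study describes no water deprivation for the other groups, so odor training cannot be told apart from water deprivation and reward. The 2 control libraries, 7519 neurons, are labelled as having no manipulation, while the study also describes the control as the open side of occluded animals. These libraries entered the fits for the spread, and their values stand beside most results. Values are given in the order male pool, female pool. With 2 pools a group, p-values measure the spread between pools, and sex and replicate cannot be told apart.

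The bulb receives odor information from olfactory sensory neurons of the nose, whose axons end in glomeruli on mitral and tufted cells. Local inhibition comes from granule cells (GC) and periglomerular cells (PGC), and new neurons of both kinds arrive throughout life from the subventricular zone, pass through an immature stage and survive in part according to odor input. Neuronal firing switches on immediate early genes, which encode transcription factors, and then a later set that encodes secreted and synaptic proteins. S100a5, a calcium-binding protein of olfactory sensory neurons, is itself known to follow odor input.

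The 18 clusters carry the authors' names. All 5 fixed markers of olfactory sensory neurons were at their highest in n01-OSNs, and all 5 immature neuron markers in n04-Immature. In n05-PGC-2, 3 of 4 dopaminergic markers ranked 1 of 18, and in n17-M/TC-3, 3 of 5 mitral and tufted markers did. Granule cell clusters had mixed ranks. In n03-GC-1 Calb2 ranked 1, Gad1 12 and Gad2 13. In n07-GC-2 Penk ranked 1, Synpr and Tpbg 3, Pcp4 and Meis2 8 and Gad1 9. In n14-GC-7 Tpbg ranked 1, Slc32a1 2, Penk 3, Gad1 5 and Meis2 14. In n10-GC-4 Gad1 ranked 3, Meis2 6, Calb2 10 and Penk 12. In n13-AstrocyteLike Gad1, Gad2 and Slc32a1, markers of inhibitory neurons, ranked 10, 12 and 14. The study excluded that cluster from its adult-born neurons as ambiguous. The cluster named n13-AstrocyteLike and the granule cell cluster n14-GC-7 were shallow, with medians of 656 and 690 UMIs (unique molecular identifiers, counted RNA molecules) per cell, of which 30.5% and 29.7% were mitochondrial. Library labels were taken from the metadata, since 7833 neurons, all trained, have cell names that begin with the label of the other trained library. With the labels used, Xist, an RNA of the inactive X chromosome, was nearly absent from replicate 1 and abundant in replicate 2 of every group. Over all annotated cells it had 5 and 27904 UMIs in the occluded, 0 and 20628 in the trained and 4 and 20000 in the control libraries. Libraries held 3863883 to 6002502 neuron UMIs, and of 21472 distinct neuron barcodes 274 occurred in 2 libraries and 0 in more.

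Taken over all clusters together, trained neurons were shallower and held more mitochondrial RNA than occluded neurons. The median neuron had 1306 and 1174 UMIs in the occluded libraries, 810 and 984 in the trained libraries and 992 and 928 in the controls. The groups did not overlap; the trained mean was lower by 343 UMIs (difference -343; two-sided exact permutation test p = 0.333, the smallest p that 2 against 2 allows). The median mitochondrial share was 11.6% and 8.79% in the occluded, 18.2% and 12.4% in the trained and 16.0% and 15.4% in the control libraries. It was 5.10 percentage points higher in trained neurons, again without overlap (exact permutation p = 0.333). Neurons with at least 20% mitochondrial UMIs made up 23.7% and 15.7% of the occluded, 44.7% and 25.5% of the trained and 37.6% and 36.2% of the control neurons. Over all annotated cells the trained mean depth was lower by 337.5 UMIs (difference -337.5; exact permutation p = 0.667) with overlapping groups. There the mean mitochondrial share was 2.97 percentage points higher in the trained libraries, without overlap. Within most clusters the groups overlapped in depth and in mitochondrial share. Depth was lower in trained cells without overlap in n11-GC-5 and n16-M/TC-2. In n11-GC-5 the medians were 2374 and 2173 UMIs in occluded, 1892 and 2151 in trained and 2082 and 2170 in control libraries. The mitochondrial share was higher in trained cells without overlap in n07-GC-2, n08-PGC-3, n13-AstrocyteLike, n16-M/TC-2 and n18-EPL-IN. In n01-OSNs it was lower without overlap, with means of 41.2% in occluded and 38.1% in trained libraries.

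**Figure D1:**
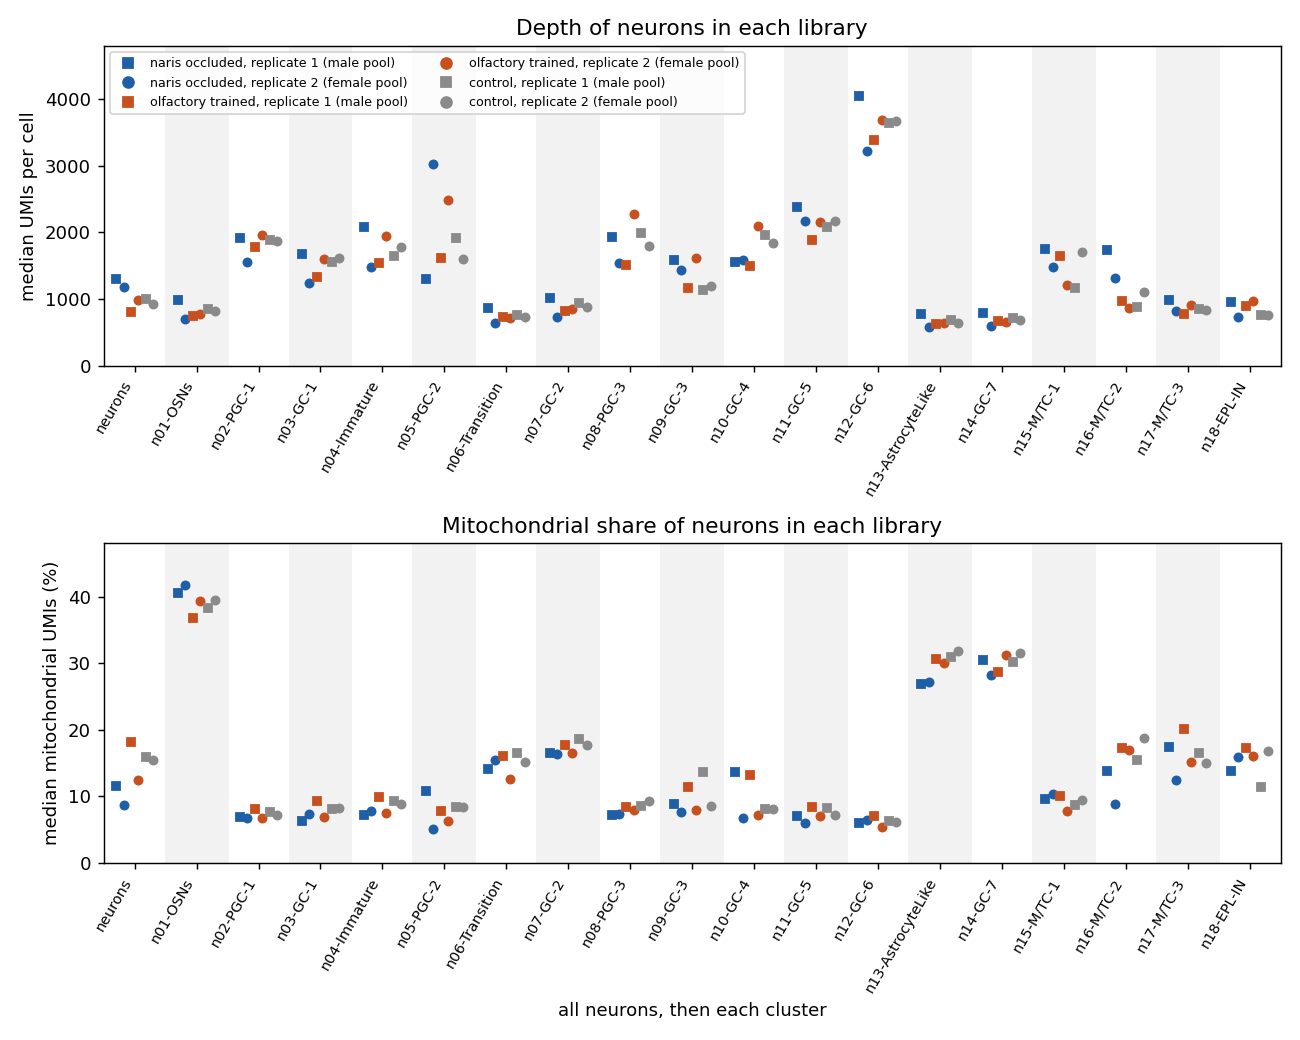
Median UMIs per cell (top) and median share of mitochondrial UMIs in percent (bottom) for all neurons and for each of the 18 clusters, with 1 point per library. Over all neurons both trained points lie below both occluded points in depth and above them in mitochondrial share, whereas n13-AstrocyteLike and n14-GC-7 are shallow and rich in mitochondrial RNA in all 6 libraries.

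The share of the neurons held by each cluster differed between trained and occluded bulbs in 3 of 18 clusters (16.7% of those tested; edgeR's quasi-likelihood test on cell numbers, Benjamini-Hochberg adjusted). The granule cell cluster n14-GC-7 was higher after training, and the granule cell clusters n03-GC-1 and n10-GC-4 were lower. Shares add up to all the neurons of a library, so a higher share of one cluster lowers the others.

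n14-GC-7 held 38 and 36 cells, 1.27% and 1.06% of the neurons, in the occluded libraries. It held 222 and 90 cells, 4.39% and 3.24%, in the trained libraries, with exact binomial 95% intervals of 3.84 to 4.99% and 2.61 to 3.97% that cover counting error only. The controls, at 4.07% and 3.66%, were level with the trained libraries. The log2 ratio of trained over occluded was 1.72 (SE 0.31; adjusted p = 0.000197 by edgeR's quasi-likelihood test), and the call held when any of the 6 libraries was left out. This cluster is among the shallowest: at a minimum of 1000 UMIs it kept 8 and 1 occluded and 12 and 1 trained cells, and under 20% mitochondrial UMIs 3 and 3 occluded and 16 and 3 trained cells. On those few cells the log2 ratios were 0.72 (edgeR adjusted p = 0.892) and 1.67 (edgeR adjusted p = 0.356). The part that the depth and the mitochondrial share of the libraries have in this difference was not tested.

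n03-GC-1, the granule cell cluster with the highest level of the calcium buffer calretinin (Calb2), held 12.1% and 17.2% of the occluded neurons. It held 5.66% and 5.01% of the trained neurons and 7.77% and 6.34% of the control neurons. The log2 ratio was -1.46 (SE 0.37; edgeR adjusted p = 0.00596), with both occluded libraries above all the others. The call was lost among cells with at least 1000 UMIs (-0.96; edgeR adjusted p = 0.108) and in the fit of only the 4 libraries compared (-1.46; edgeR adjusted p = 0.0609), and held among cells under 20% mitochondrial UMIs (-1.15; edgeR adjusted p = 0.00434). It was also lost, at little change in size, without the trained female library (-1.38; edgeR adjusted p = 0.0530) or without either control library (-1.46; edgeR adjusted p = 0.0521 and 0.0540).

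n10-GC-4 was small. It held 36 and 64 cells (1.21% and 1.88%) in the occluded, 28 and 26 (0.554% and 0.936%) in the trained and 48 and 32 (1.08% and 1.04%) in the control libraries. The log2 ratio of -1.10 (SE 0.35) passed with an edgeR adjusted p of 0.0269. It passed in none of the 8 alternatives other than leaving out a library; in these its edgeR or DESeq2 value lay between -1.09 and -0.69. Of the 6 fits without a library it passed in 2, and was lost without the occluded female library (-0.74; edgeR adjusted p = 0.298), the trained male library (-0.72; edgeR adjusted p = 0.227) or either control library (-1.09; edgeR adjusted p = 0.0813 and 0.0807).

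The other clusters did not pass. n08-PGC-3, a small periglomerular cluster, came closest: it held 1.37% and 1.82% of occluded, 1.07% and 0.576% of trained and 1.20% and 1.71% of control neurons, with both trained libraries lowest (log2 ratio -0.91, SE 0.34; edgeR adjusted p = 0.0633). It passed without the occluded male library (-1.09; edgeR adjusted p = 0.0328) and without the trained male library (-1.47; edgeR adjusted p = 0.0212). n06-Transition, which the study counts among the immature clusters, held 5.33% and 7.44% of occluded, 11% and 13.8% of trained and 7.79% and 12.6% of control neurons (log2 ratio 0.95, SE 0.39; edgeR adjusted p = 0.0697). It passed among cells under 20% mitochondrial UMIs (1.24; edgeR adjusted p = 0.00339) and when n01-OSNs and n13-AstrocyteLike were left out of the denominator (1.12; edgeR adjusted p = 0.00723). n13-AstrocyteLike held 8.45% and 5.89% of occluded neurons against 23.8% and 7.81% of trained and 15.0% and 13.4% of control neurons (1.15; edgeR adjusted p = 0.0697), with 1202 of its cells in the trained male library. Without that library its log2 ratio was 0.13 (edgeR adjusted p = 0.853), while it passed without the occluded male library (1.43; edgeR adjusted p = 0.0328) and without the trained female library (1.73; edgeR adjusted p = 0.0162). n04-Immature, the migrating and newly arrived neurons, held 18.9% and 27.5% of occluded, 13.8% and 20.2% of trained and 16.3% and 13.9% of control neurons (-0.45, SE 0.48; edgeR adjusted p = 0.491); the ratio lay between -0.75 and -0.15 when 1 library was left out and at -0.007 among cells with at least 1000 UMIs. n07-GC-2, the granule cells with the highest level of the enkephalin precursor Penk, held 19.8% and 10.6% of occluded against 16.2% and 21.5% of trained and 16.5% and 16.6% of control neurons (0.31, SE 0.47; edgeR adjusted p = 0.554). n05-PGC-2, the dopaminergic periglomerular cells, held 2.05% and 1.44% against 1.62% and 1.40%, with 1.72% and 2.26% in the controls (-0.19, SE 0.31; edgeR adjusted p = 0.554).

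**Figure D2:**
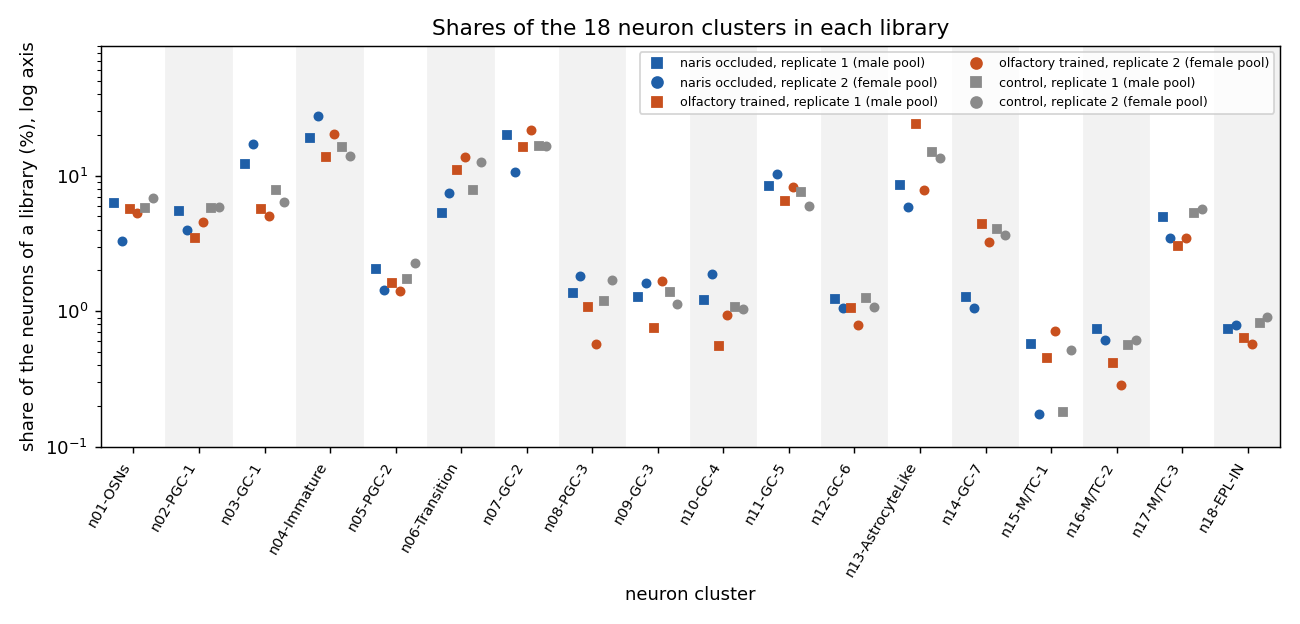
Share of the neurons of each library, in percent on a log axis, held by each of the 18 clusters, with 1 point per library. In n14-GC-7 the trained and control points lie together above both occluded points, and in n03-GC-1 both occluded points lie above the other 4.

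Genes were compared on UMIs summed over the cells of a cluster in each library, in the 14 clusters with at least 20 cells in every library. Training and occlusion differed at 125 of 64704 gene and cluster pairs, covering 80 different genes. Of these, 86 were higher in trained neurons (0.133% of the pairs) and 39 lower (0.0603%; edgeR's quasi-likelihood test, Benjamini-Hochberg adjusted within each cluster). In all 125 the 2 groups did not overlap, as was the case for 18% of all pairs with trained above and 17.7% with trained below.

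Most calls lay in 6 clusters. n11-GC-5, a granule cell cluster, had 22 genes higher and 12 lower (0.414% of the genes tested), n07-GC-2 17 and 2 (0.231%), n13-AstrocyteLike 5 and 10 (0.453%), n02-PGC-1 9 and 4 (0.223%), n03-GC-1 10 and 3 (0.186%) and n12-GC-6 8 and 4 (0.402%). In n17-M/TC-3, 7 genes were higher and none lower (0.159%), and in n06-Transition 6 were higher and 1 lower (0.116%). Single genes passed in n01-OSNs (0.0574%), n04-Immature (0.0107%), n05-PGC-2 (0.0277%), n09-GC-3 (0.0706%) and n14-GC-7 (0.0878%). In n10-GC-4, 0 genes passed with edgeR and 0 with DESeq2 (0%), with 57 at an unadjusted edgeR p under 0.05.

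The calls leaned on the trained male library. Without it 34 of the 125 were still called in the same direction, against 88 without the trained female library, 74 and 78 without the male and female occluded library, and 104 without either control library. The 13 calls of n03-GC-1 leaned on the controls as well: 2 and 1 remained without the male and the female control library, and 1 in the fit of only the 4 libraries compared; Fosl2, Scg2, Hspa8 and Tubb3 were among those lost each time. 15 of the 125 were called in all 6 of these fits. In n12-GC-6, 3 of the 12 calls (S100a5, Hspa8 and R3hdm1) were kept with the replicate number as a block, and the 4 lower ones were all lost. DESeq2, run on the same genes, called 24 of the 125, and the fit of only the 4 libraries compared called 57. That library was also the shallowest and the richest in mitochondrial RNA; among cells under 20% mitochondrial UMIs 85 of the 125 were called, and among cells with at least 1000 UMIs 73. The losses lay mainly in 3 clusters: n07-GC-2 kept 4 and 1 of its 19 calls, n06-Transition 3 and 0 of 7 and n13-AstrocyteLike 1 and 1 of 15. Fewer genes were tested under the filters, and a gene no longer tested counts as lost. With at least 1000 UMIs 360 genes against 3313 were tested in n13-AstrocyteLike, 1715 against 6048 in n06-Transition and 5386 against 8217 in n07-GC-2. Under 20% mitochondrial UMIs the numbers were 467, 5098 and 7105. At 1000 UMIs n13-AstrocyteLike kept 33 and 7 occluded and 31 and 10 trained cells. In n07-GC-2 Nr4a1, Nptx2 and Pcdh17 passed under neither filter, with edgeR adjusted p of 0.0660 to 0.888.

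Immediate early genes were among those higher after training. Of 105 gene and cluster pairs of the 22 listed genes, 9 were called higher and 0 lower by edgeR, beside 0.133% and 0.0603% over all pairs. This list, like the others used here, was chosen with earlier results of these data known, so its counts are no independent evidence. The called genes were Fosl2, Egr1 and Nr4a1, 3 of 17 genes tested, and DESeq2 called 1 pair. Fos, Junb and Jun were tested and not called. In n07-GC-2 and n11-GC-5 their log2 fold changes were 0.88 and 1.04 for Fos, 1.16 and 0.91 for Junb and -0.69 and -0.65 for Jun. In n11-GC-5 the median log2 fold change of the list was 0.91 over the 17 members that passed the filter on low counts, beside 0.00 over all genes (0.003 before rounding), and in n07-GC-2 it was 0.96 over 15 members. These were the highest medians; the list's median lay above that of all genes in 7 of 14 clusters, and it was lowest in n02-PGC-1, at -0.55 over 9 members. The summed level of the list did not overlap between the groups in 10 of 18 clusters, with trained above in 9, among them n11-GC-5 at 833 and 1030 CPM (the gene's UMIs scaled to a common total over all genes) in occluded against 1582 and 1182 in trained libraries (control 870 and 1081). Over all listed sums, trained was above without overlap in 22.2% and below in 15.8% of sums. In nonneuronal cells the sum was 1797 and 2372 CPM in occluded, 1849 and 2530 in trained and 1600 and 1950 in control libraries, which overlapped.

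Fosl2, a Fos family transcription factor, was positive in all 8 clusters where it was tested and called in 4. Levels of single genes are given as CPM scaled by edgeR's TMM factors. In n11-GC-5 Fosl2 was at 16.2 and 25.8 CPM in occluded, 115 and 65.6 in trained and 35.5 and 30.5 in control libraries. Both trained libraries stood above all others there (log2 fold change 2.10, SE 0.31; edgeR adjusted p = 0.000443), from 10 and 19 UMIs against 71 and 32. In n07-GC-2 it was at 7.64 and 0 CPM in occluded, 55.5 and 37.3 in trained and 11.3 and 13.1 in control libraries (3.14, SE 0.54; edgeR adjusted p = 0.00284). With 5 and 0 occluded UMIs the size of this difference is poorly fixed, and leaving out 1 library gave log2 values from 2.60 to 7.71. n03-GC-1 (1.53) and n13-AstrocyteLike (2.95, from 3 and 0 occluded UMIs, with 2.27 to 7.70 when 1 library was left out) also passed. Without the trained male library it passed in none of the 4, with edgeR adjusted p between 0.146 and 0.825. In nonneuronal cells Fosl2 was at 4.63 and 7.14 CPM in occluded against 23.0 and 14.5 in trained libraries (control 9.81 and 10.7; 1.68, edgeR adjusted p = 0.137), so the direction was the same outside neurons; there it passed with the replicate number, which is also the sex of the pool, as a block (edgeR adjusted p = 0.0351).

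Egr1, a zinc finger transcription factor, was at 63.4 and 71.9 CPM in occluded n11-GC-5, 165 and 141 in trained and 101 and 140 in control libraries. The fold change there was 1.18 on the log2 scale (SE 0.21; edgeR adjusted p = 0.00420), and the higher control library lay just under the lower trained one. Egr1 also passed in n12-GC-6 (1.37) and n13-AstrocyteLike (2.09). In n13-AstrocyteLike it rested on 4 and 4 UMIs against 94 and 9. Nr4a1, an orphan nuclear receptor, was at 16.8 and 16.6 CPM in occluded n07-GC-2, 79.9 and 52.2 in trained and 35.2 and 35 in control libraries (2.00, SE 0.35; edgeR adjusted p = 0.00303), and also passed in n11-GC-5 (1.32; edgeR adjusted p = 0.0397). None of these calls of Egr1 and Nr4a1 passed without the trained male library, with edgeR adjusted p between 0.185 and 0.951.

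The 250 bases before the start of Nr4a1, Fosl2, S100a5 and R3hdm1 are shown because these genes were higher in several clusters and cyclic AMP response elements (CRE) and AP-1 sites are the letters that activity-driven factors are known to bind. The sequences are RefSeq's on GRCm38.p6, at chr15:101266596-101266845, chr5:32136222-32136471, chr3:90608272-90608521 and chr1:128103056-128103305, all on the plus strand. Capitals mark the short CRE letters TGACG on either strand.
Nr4a1: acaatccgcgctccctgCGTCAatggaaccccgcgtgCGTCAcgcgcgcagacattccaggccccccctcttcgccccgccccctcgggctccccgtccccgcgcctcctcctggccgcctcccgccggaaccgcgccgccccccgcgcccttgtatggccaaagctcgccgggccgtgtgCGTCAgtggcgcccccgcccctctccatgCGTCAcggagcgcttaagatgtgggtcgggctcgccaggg
Fosl2: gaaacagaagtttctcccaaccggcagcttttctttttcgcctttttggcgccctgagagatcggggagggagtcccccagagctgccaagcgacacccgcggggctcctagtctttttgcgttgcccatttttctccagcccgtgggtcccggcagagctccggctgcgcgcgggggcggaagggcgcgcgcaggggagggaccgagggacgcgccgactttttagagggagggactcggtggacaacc
S100a5: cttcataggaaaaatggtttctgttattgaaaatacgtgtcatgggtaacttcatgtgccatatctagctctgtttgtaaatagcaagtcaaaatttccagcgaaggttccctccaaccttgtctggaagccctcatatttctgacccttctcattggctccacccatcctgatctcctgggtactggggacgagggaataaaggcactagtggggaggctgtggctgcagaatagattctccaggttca
R3hdm1: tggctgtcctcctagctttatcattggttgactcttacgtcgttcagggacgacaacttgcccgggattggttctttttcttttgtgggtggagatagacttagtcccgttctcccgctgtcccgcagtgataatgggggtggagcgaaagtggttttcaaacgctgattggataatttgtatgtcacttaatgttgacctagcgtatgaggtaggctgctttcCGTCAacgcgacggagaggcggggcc
Nr4a1 held 4 matches to TGACG, starting 233, 213, 69 and 40 bases before the gene start, and R3hdm1 held 1, starting 26 bases before it. RefSeq lists a second start of R3hdm1, whose window at chr1:128141737-128141986 held 0. Fosl2 and S100a5 held none, and none of the 4 windows held the full letters TGACGTCA or the AP-1 letters TGANTCA. Among 32851 windows of 250 bases, 17.8% held TGACG, 1.55% held TGACGTCA, which contains TGACG, and 6.75% held TGANTCA. A match describes letters in the window.

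Of 81 gene and cluster pairs of late activity genes, 8 were called higher after training and 0 lower by edgeR, beside 0.133% and 0.0603% over all pairs. These calls covered 6 of 17 genes tested, and DESeq2 called 1 pair. The list, which holds the called genes Nppa and Apold1, was chosen with earlier results of these data known, so its counts are no independent evidence. Its name is a label: Apold1 is known as an early response gene, and the timing of the members was not tested. The summed level of the list was higher in both trained libraries than in both occluded libraries in 16 of 18 clusters and lower in n10-GC-4, beside 22.2% and 15.8% over all listed sums. In n02-PGC-1 the sum was 1544 and 1316 CPM over all genes in occluded, 2298 and 2486 in trained and 2418 and 2419 in control libraries, and most of it in each library came from Nppa and Apold1. In n03-GC-1 it was 674 and 588 in occluded against 1074 and 1167 in trained and 1066 and 1202 in control libraries. There the controls were level with training, and occlusion stood apart. In n06-Transition, by contrast, the controls at 737 and 698 lay between occluded (506 and 483) and trained (843 and 838) libraries. The sum was also higher in trained nonneuronal cells, at 462 and 454 against 403 and 363 (control 394 and 435).

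**Figure D3:**
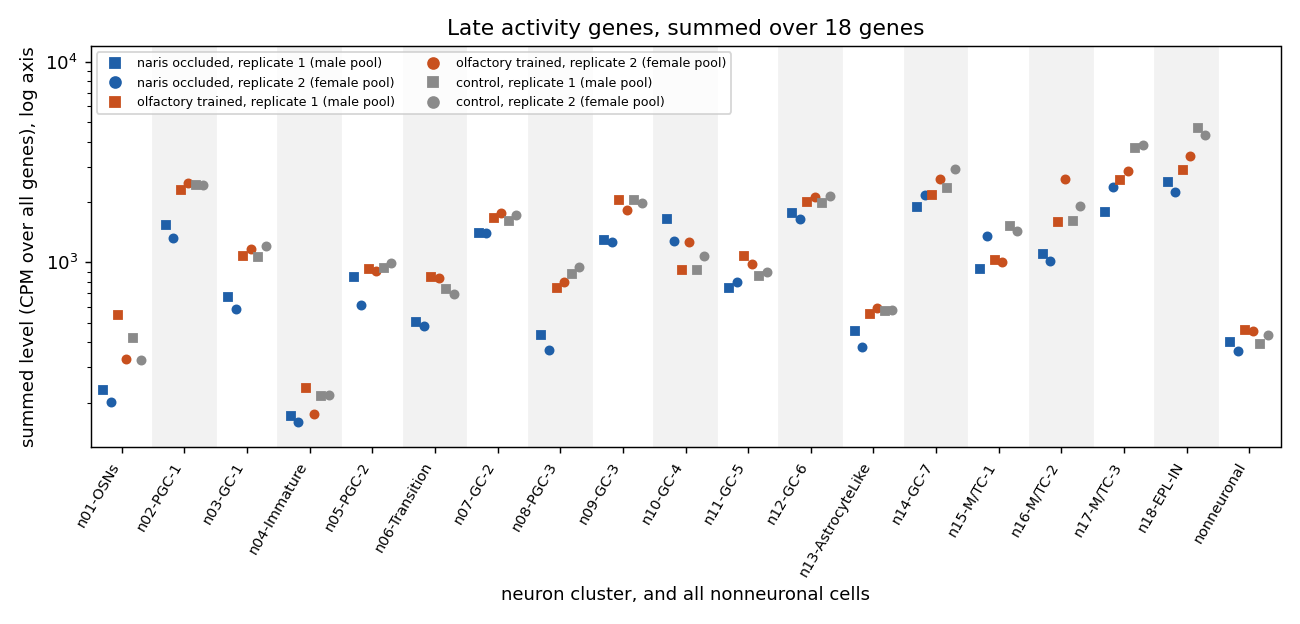
Summed level of the 18 late activity genes, in CPM over all genes on a log axis, in each neuron cluster and in nonneuronal cells, with 1 point per library. Both trained points lie above both occluded points in 16 of 18 clusters; n10-GC-4 has the opposite order and n15-M/TC-1 overlaps.

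In n02-PGC-1, the calretinin periglomerular cells, the early response gene Apold1 and the natriuretic peptide gene Nppa were both higher after training. Apold1 was at 429 and 358 CPM in occluded, 822 and 800 in trained and 819 and 723 in control libraries (log2 fold change 1.03, SE 0.16; edgeR adjusted p = 0.000555), and it passed in all 6 fits without a library. Nppa was at 712 and 564 CPM in occluded, 930 and 1202 in trained and 1189 and 1205 in control libraries (0.73, SE 0.16; edgeR adjusted p = 0.0332). For both, the controls were level with the trained libraries.

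Among granule cells, Homer1, which encodes a postsynaptic scaffold and its activity-induced short form, was at 73.1 and 86.9 CPM in occluded n11-GC-5. It was at 204 and 162 in trained and 80.9 and 99.1 in control libraries (1.19, SE 0.19; edgeR adjusted p = 0.00140), so here training stood apart from the other groups. In n12-GC-6 it was at 91.1 and 92.1 CPM in occluded, 281 and 247 in trained and 120 and 139 in control libraries (1.54, SE 0.37; edgeR adjusted p = 0.0203). Nptx2, a secreted protein that gathers AMPA receptors, was at 30.6 and 33.2 CPM in occluded n07-GC-2, 85.3 and 76.5 in trained and 40.9 and 26.2 in control libraries (1.36, SE 0.29; edgeR adjusted p = 0.0315). Nptx2 (1.97) and the secreted peptide precursor Vgf (1.12) also passed in n11-GC-5, and the secretogranin Scg2 (0.84) in n03-GC-1. Without the trained male library none of these calls of Homer1, Nptx2, Vgf and Scg2 passed, with edgeR adjusted p between 0.0609 and 0.615.

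Chaperone genes were called higher in trained neurons in 5 clusters. Over 169 pairs of the heat shock list, 6 were called higher and 0 lower by edgeR, beside 0.133% and 0.0603% over all pairs. Of the 6, 5 were Hspa8, the constitutive cytosolic chaperone. Hspa8 was positive in all 14 clusters tested and in n12-GC-6 was at 1251 and 1393 CPM in occluded, 2640 and 2179 in trained and 1421 and 1366 in control libraries (0.88, SE 0.18; edgeR adjusted p = 0.00346). In n11-GC-5 it was at 1037 and 1072 in occluded, 1988 and 1481 in trained and 1001 and 1093 in control libraries (0.72, SE 0.13; edgeR adjusted p = 0.00898). It passed also in n02-PGC-1, n03-GC-1 and n07-GC-2, and in none of the 5 without the trained male library. Nonneuronal cells had 568 and 638 CPM in occluded and 1268 and 859 in trained libraries (control 598 and 673; 0.82, edgeR adjusted p = 0.148). The sum of the list was higher in both trained libraries in 13 of 18 clusters, beside 22.2% over all listed sums.

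Hspa5, the chaperone of the endoplasmic reticulum, was at 132 and 162 CPM in occluded n02-PGC-1, 443 and 362 in trained and 210 and 205 in control libraries (1.48, SE 0.20; edgeR adjusted p = 8.70e-05), and it passed in all 6 fits without a library.

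R3hdm1 and Pcdh17 were called higher in 4 clusters each, and Zmym1 and E530001K10Rik in 3 each. R3hdm1, which encodes an R3H domain protein, was at 354 and 353 CPM in occluded n11-GC-5, 630 and 682 in trained and 422 and 455 in control libraries (0.89, SE 0.13; edgeR adjusted p = 0.000443), and it passed in all 6 fits without a library. It passed also in n06-Transition (1.12), n07-GC-2 (0.80) and n12-GC-6 (1.08), and in nonneuronal cells it was at 96.4 and 86.4 CPM in occluded and 103 and 106 in trained libraries (0.19; edgeR adjusted p = 0.446). Zmym1, a zinc finger gene, was at 29.2 and 32.6 CPM in occluded n11-GC-5, 120 and 105 in trained and 39.7 and 17.8 in control libraries (1.85, SE 0.26; edgeR adjusted p = 0.000301), again with all 6 fits passing. For both genes training stood above the occluded and the control libraries alike.

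E530001K10Rik, a transcript known by its clone name, was tested in 4 clusters and passed in 3: n02-PGC-1, n03-GC-1 and n05-PGC-2. In n03-GC-1 it was at 16.4 and 15.6 CPM in occluded, 86.9 and 147 in trained and 53.7 and 63.9 in control libraries (2.76, SE 0.35; edgeR adjusted p = 2.80e-05), from 10 and 11 against 32 and 31 UMIs, and it passed in all 6 fits without a library. Pcdh17, a protocadherin of cell adhesion, passed in n06-Transition (1.39), n07-GC-2 (1.11), n11-GC-5 (1.09) and n12-GC-6 (1.11). In n07-GC-2 it was at 184 and 216 CPM in occluded, 502 and 345 in trained and 302 and 308 in control libraries (SE 0.20; edgeR adjusted p = 0.00397), and without the trained male library it passed in none of the 4. In nonneuronal cells Pcdh17 was at 97.8 and 117 CPM against 113 and 92.5 (-0.07; edgeR adjusted p = 0.862).

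**Figure D4:**
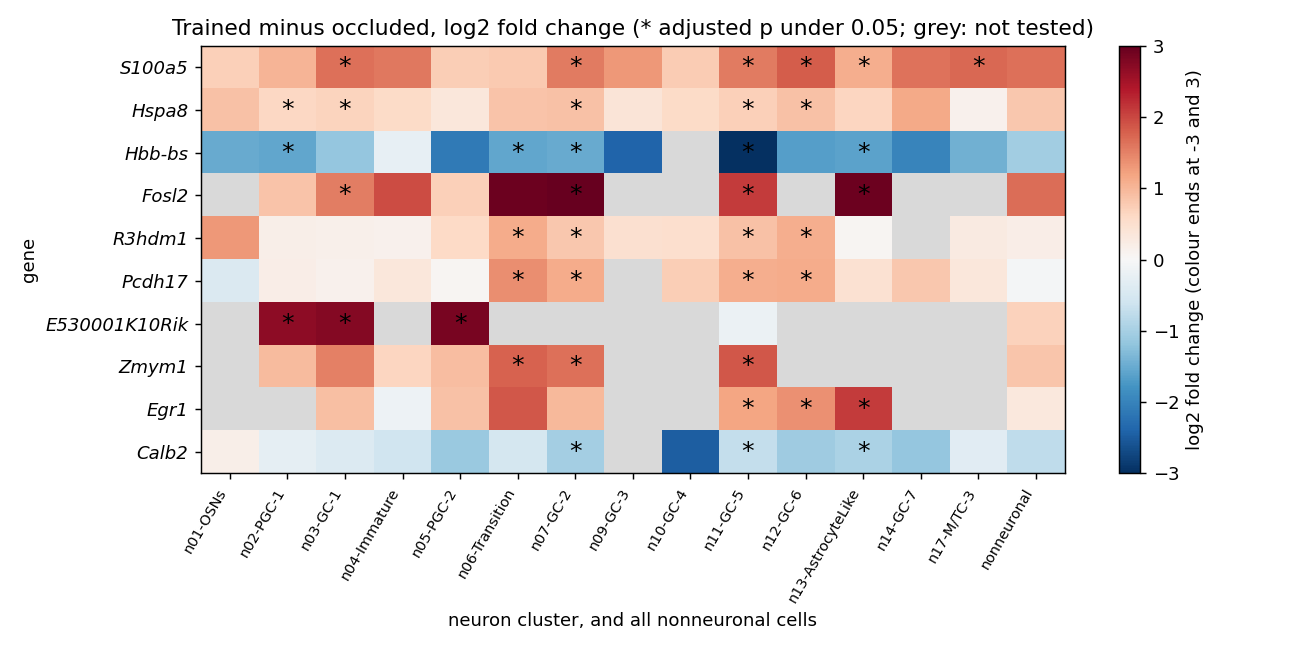
Log2 fold change of trained over occluded libraries, as colour, for the 10 genes called in the most clusters (rows) in the 14 tested clusters and in nonneuronal cells (columns); stars mark an adjusted p under 0.05 and grey marks pairs not tested. S100a5 has 6 stars, Hspa8 and Hbb-bs have 5, and nonneuronal cells have none in this fit without a replicate block.

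S100a5 was the gene called in the most clusters, 6 of 14, and was positive in all 14. RNA freed by damaged cells gives UMIs in droplets whose cell does not express a gene, and S100a5 marks sensory neurons. n01-OSNs held it at 17370 and 11700 CPM in occluded, 19090 and 28450 in trained and 29720 and 29100 in control libraries (0.70, SE 0.19; edgeR adjusted p = 0.105). In n07-GC-2 it was at 474 and 216 CPM in occluded, 1401 and 709 in trained and 1212 and 1227 in control libraries (1.57, SE 0.24; edgeR adjusted p = 0.000575). In n12-GC-6 it was at 149 and 81.9 in occluded against 555 and 185 in trained and 504 and 436 in control libraries (1.82, SE 0.33; edgeR adjusted p = 0.000696). Nonneuronal cells showed the same order at a like size, 259 and 137 CPM in occluded, 830 and 420 in trained and 712 and 673 in control libraries (1.66, SE 0.32; edgeR adjusted p = 0.146), and S100a5 passed there with the replicate number as a block (edgeR adjusted p = 0.00916). Levels outside n01-OSNs cannot be told apart from free sensory neuron RNA. Without the trained male library none of the 6 calls passed and their log2 values fell from between 1.10 and 1.82 to between 0.62 and 1.00. DESeq2 called none, and the robust edgeR fit called it in 2 clusters, n12-GC-6 and n13-AstrocyteLike.

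Calls of sensory neuron genes were of S100a5 alone, while the list lay higher after training in most clusters without passing. Its median was above that of all genes in 12 of 14 clusters, the medians running from -0.39 in n01-OSNs to 0.95 in n14-GC-7, and 24 of its 88 pairs, those of S100a5 included, had an unadjusted edgeR p under 0.05. The olfactory marker protein gene Omp passed in no cluster; in n01-OSNs it was at 948 and 821 CPM in occluded, 589 and 791 in trained and 827 and 866 in control libraries (-0.39, SE 0.22; edgeR adjusted p = 0.608). In nonneuronal cells Omp was higher in both trained libraries, at 29.9 and 21.0 CPM over all genes against 19.8 and 11.7 (control 23.3 and 20.4). Of 88 pairs of the 18 listed genes, 6 were called higher by edgeR, all S100a5, beside 0.133% over all pairs. The summed list was higher in both trained libraries in 6 of 18 clusters, beside 22.2% over all listed sums. In nonneuronal cells it was at 820 and 702 CPM over all genes in occluded, 1713 and 969 in trained and 1416 and 1329 in control libraries. In n01-OSNs itself, Sult1d1, a sulfotransferase, was the 1 gene called: 144 and 112 CPM in occluded, 24.5 and 30.7 in trained and 82.7 and 108 in control libraries (-2.29, SE 0.47; edgeR adjusted p = 0.0199), from 30 and 9 against 6 and 4 UMIs, with 33.3% of the 30 in 1 cell. The call was lost without the occluded or the trained male library (edgeR adjusted p = 0.315 and 0.181), with DESeq2 (adjusted p = 0.932), with no filter on low counts (edgeR adjusted p = 0.0697) and among cells with at least 1000 UMIs (-1.18; edgeR adjusted p = 0.491).

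**Figure D5:**
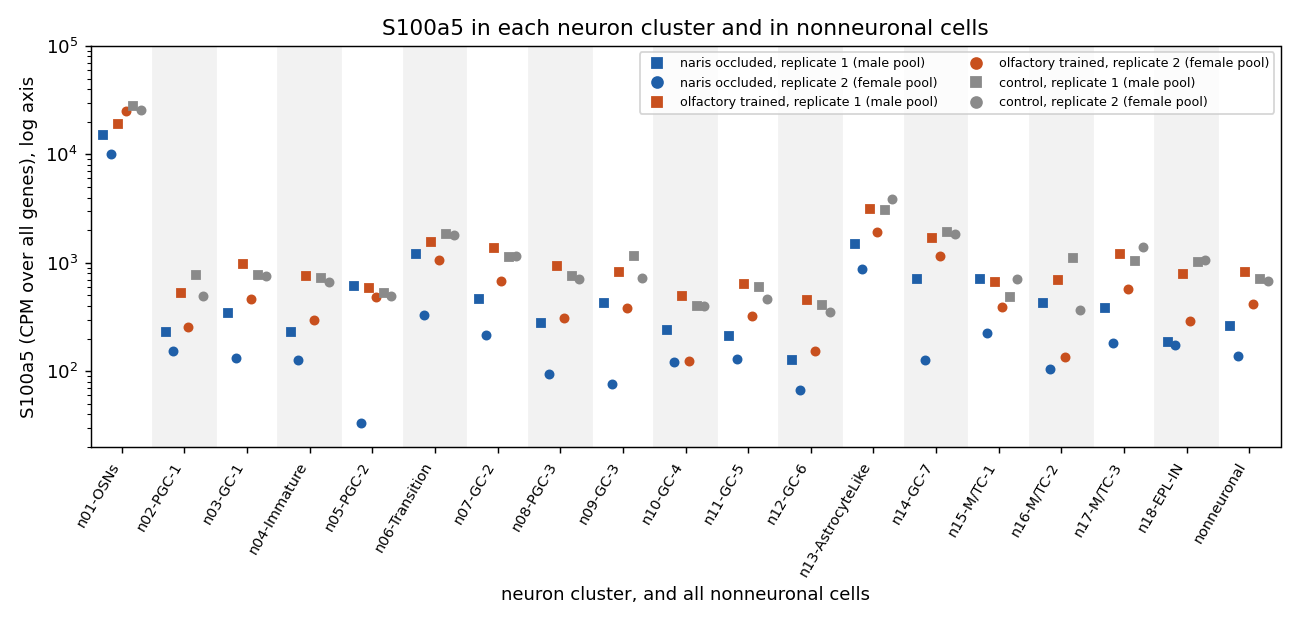
S100a5 in CPM over all genes, on a log axis, in each neuron cluster and in nonneuronal cells, with 1 point per library. The occluded points tend to lie lowest. Outside n01-OSNs the female library lies below the male library in the occluded and the trained group, while the order of the controls varies. Nonneuronal cells repeat the order of the groups seen in the granule cell clusters.

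Calb2, the calretinin gene, was lower after training in 3 clusters where it is not at its highest. In n11-GC-5 it was at 1599 and 1352 CPM in occluded, 890 and 912 in trained and 1114 and 1136 in control libraries (-0.71, SE 0.13; edgeR adjusted p = 0.00452). It passed also in n07-GC-2 (-1.02) and n13-AstrocyteLike (-0.94). In n07-GC-2 it was at -0.61 without the trained female library (edgeR adjusted p = 0.353) and at -1.67 without the trained male library, and in n13-AstrocyteLike it was at -0.55 without the occluded female library (edgeR adjusted p = 0.411). In n03-GC-1, the calretinin-rich granule cells, it was at 16510 and 14470 CPM in occluded and 9544 and 13870 in trained libraries (control 14970 and 13030; -0.41, SE 0.11; edgeR adjusted p = 0.202). There it ranged from -0.70 to -0.16 when 1 library was left out, and it passed without the occluded female library and without the trained female library, with the lowest edgeR adjusted p, 3.30e-06, in the latter. In nonneuronal cells Calb2 was at 131 and 151 CPM in occluded against 110 and 56.7 in trained libraries (-0.75; edgeR adjusted p = 0.281), while the calretinin-rich n03-GC-1 held a larger share of the occluded neurons; the part of free Calb2 RNA was not tested.

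Of 122 pairs of 21 neuropeptide precursor genes, 3 were called higher and 2 lower by edgeR, beside 0.133% and 0.0603% over all pairs, and 0 by DESeq2. The 3 were Nppa, Scg2 and Vgf, which the late activity list also holds, and the 2 were Vip and Trh. In n02-PGC-1 the vasoactive intestinal peptide gene Vip was at 770 and 807 CPM in occluded, 550 and 197 in trained and 323 and 386 in control libraries (-1.04, SE 0.23; edgeR adjusted p = 0.0391). This call was lost in the robust fit (edgeR adjusted p = 0.823) and without the trained female library (-0.53; edgeR adjusted p = 0.333), and without the trained male library the value was -2.01; a single cell held 20.7 to 30.6% of the Vip UMIs of each of the 4 libraries. In n11-GC-5 the thyrotropin-releasing hormone gene Trh was at 95.9 and 136 CPM in occluded, 54.9 and 41 in trained and 97.9 and 130 in control libraries (-1.26, SE 0.25; edgeR adjusted p = 0.0148). Of the 18 clusters Trh was highest in n05-PGC-2, at 3902 CPM over all genes, and the part of free Trh RNA was not tested. The growth cone gene Gap43 in n11-GC-5 was at 102 and 123 in occluded against 53.3 and 43.0 in trained and 73.8 and 73.7 in control libraries (-1.22; edgeR adjusted p = 0.0103). Over 264 pairs of 22 immature neuron genes, 0 were called higher and 3 lower by edgeR, beside 0.133% and 0.0603% over all pairs. Those called were Gap43, the neuronal tubulin Tubb3 in n03-GC-1 (-0.77) and Nnat in n13-AstrocyteLike (-1.03). Nnat was at -0.37 without the occluded female library (edgeR adjusted p = 0.815) and at -1.58 without the occluded male library, and it did not pass without the trained male library (edgeR adjusted p = 0.405). In n04-Immature itself, 1 gene of 9312 passed: Hmgb2, a chromatin protein of dividing cells, at 88.3 and 79.3 CPM in occluded, 173 and 175 in trained and 281 and 303 in control libraries (1.05, SE 0.14; edgeR adjusted p = 0.00522). The call was lost without the occluded female library (0.98; edgeR adjusted p = 0.139) and in the fit of only the 4 libraries compared (edgeR adjusted p = 0.0567), and a single cell held 18.9 to 24.6% of the Hmgb2 UMIs of each of the 4 libraries. With the replicate number as a block 8 genes passed there, among them S100a5 (edgeR adjusted p = 6.71e-05). The stage markers there differed little, Sox11 by 0.07 (SE 0.11; edgeR adjusted p = 0.959) and the migration gene Dcx by 0.07 (SE 0.11; edgeR adjusted p = 0.960) on the log2 scale.

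The tyrosine hydroxylase gene Th, the dopamine synthesis enzyme known to fall when a nostril is closed, was at 1312 and 1084 CPM in occluded n05-PGC-2, 1802 and 1548 in trained and 1716 and 1646 in control libraries. The groups did not overlap, yet the difference of 0.49 (SE 0.22) had an edgeR adjusted p of 0.952 among 3613 genes, in a cluster of 49 to 61 occluded and 39 to 82 trained cells. Penk in n07-GC-2 (509 and 309 against 450 and 554 CPM, control 468 and 485; edgeR adjusted p = 0.804) and the membrane glycoprotein gene Tpbg in n12-GC-6 (563 and 430 against 414 and 510, control 540 and 525; edgeR adjusted p = 0.945) overlapped.

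In the projection neurons of n17-M/TC-3, Pcp4, a regulator of calmodulin, was at 626 and 433 CPM in occluded, 2157 and 1806 in trained and 1577 and 1119 in control libraries (1.88, SE 0.24; edgeR adjusted p = 1.08e-05), and it passed in all 6 fits without a library. A single cell held 23.2% of the Pcp4 UMIs of the trained male library and another 36.7% of those of the female library, and of the 18 clusters the granule cells of n11-GC-5 had the highest level, 6876 CPM over all genes. The GABA synthesis genes Gad1 (1.65) and Gad2 (1.99), which mark inhibitory neurons, and the vesicle fusion gene Cplx2 (2.00) passed beside it. Gad1 was at 141 and 150 CPM in occluded, 347 and 568 in trained and 347 and 236 in control libraries. A single trained cell held 46 of the 95 Gad1 and Gad2 UMIs of the female library. Without it, in a fit added after the data were seen, 2 of the 7 genes passed; Pcp4 was at 1.67 (edgeR adjusted p = 0.00302), Gad1 at 1.23 (edgeR adjusted p = 0.167), Gad2 at 1.56 (edgeR adjusted p = 0.416) and Cplx2 at 0.49 (edgeR adjusted p = 0.804).

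Markers of some other cell types moved with the comparison. Hemoglobin genes, defining markers of red blood cells, were lower in trained neurons. Of 28 pairs, 9 were called lower and 0 higher by edgeR, beside 0.0603% and 0.133% over all pairs. The summed list was lower in both trained libraries in 16 of 18 clusters, beside 15.8% over all listed sums. In n11-GC-5 the sum was 2873 and 2142 CPM over all genes in occluded, 49.5 and 62.5 in trained and 164 and 71.1 in control libraries. There 1 cell held 1667 of the 1782 hemoglobin UMIs of the occluded male library and 1 cell 1442 of the 1629 of the female library. Without the 3 cells with 20 or more hemoglobin UMIs, in a fit added after the data were seen, the counts were 115 and 121 against 32 and 31, Hbb-bs was at -1.67 (edgeR adjusted p = 0.00595) in place of -5.34, and 30 of the 34 calls of the cluster were called. Nonneuronal cells held 25010 and 7950 CPM over all genes of these markers in occluded, 7239 and 7290 in trained and 22800 and 8589 in control libraries.

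Fabp7, the brain lipid-binding protein of astrocytes and olfactory ensheathing cells, was lower in n02-PGC-1 (-0.89), n09-GC-3 (-1.30) and n12-GC-6 (-1.45). In n09-GC-3 it was at 1458 and 1869 CPM in occluded, 810 and 581 in trained and 724 and 706 in control libraries (SE 0.29; edgeR adjusted p = 0.0111). In the occluded female library 1 cell held 48.5% of the Fabp7 UMIs of n09-GC-3 and 1 cell 55.3% of those of n12-GC-6. Without that library neither passed (-1.13 and -0.91; edgeR adjusted p = 0.264 and 0.296). The call in n09-GC-3 was also lost without the trained female library (edgeR adjusted p = 0.210), without the female control library, with no filter on low counts (edgeR adjusted p = 0.287) and with DESeq2 (adjusted p = 1.00). The call in n12-GC-6 was also lost with the replicate block (edgeR adjusted p = 0.116), and there the value was -2.63 without the trained male library. The summed olfactory ensheathing cell markers were lower in both trained libraries in 10 of 18 clusters and the endothelial markers in 8, with 0 higher for both, beside 15.8% over all listed sums. Astrocyte markers were lower in 3 and higher in 1, oligodendrocyte markers lower in 1 and higher in 0, and microglia markers lower in 6 and higher in 1. The part of these markers in the Fabp7 difference was not tested. Of the 125 calls, 12 had most of the UMIs of a library of the higher group in 1 cell, among them Fabp7 in n12-GC-6, Malat1, the 1 gene called in n14-GC-7 (8769 and 24550 CPM in occluded against 4422 and 3605 in trained and 6680 and 6409 in control libraries), Pf4 and Ctla2a in n13-AstrocyteLike and Fxyd1 in n02-PGC-1. For 73 of the 125 that share was at most 10%.

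Calls were rare over all pairs (0.133% higher and 0.0603% lower), so a count of 0 in a list is near the background, and 4700 of all 64704 pairs had an unadjusted edgeR p under 0.05. Of 1109 pairs of nuclear oxidative phosphorylation genes, 0 were called by edgeR and 0 by DESeq2, with 36 at an unadjusted edgeR p under 0.05, and the list's medians over clusters lay between -0.11 and 0.13. Of 1245 pairs of cytosolic ribosomal protein genes, 0 were called by edgeR and 0 by DESeq2, with 48 at an unadjusted edgeR p under 0.05, and the medians lay between -0.10 and 0.16. Vesicle release genes had 2 of 275 pairs called higher (Syn2 in n12-GC-6 and Cplx2 in n17-M/TC-3, beside 0.133% over all pairs), with the list's median above that of all genes in 14 of 14 clusters at 0.08 to 0.28. Syn2 was lost with the replicate number as a block (edgeR adjusted p = 0.116) and in the fit of only the 4 libraries compared (edgeR adjusted p = 0.146), and Cplx2 without the single cell described above.

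Whether a gene responded differently in 2 clusters was tested directly for 2 pairs. Between n03-GC-1 and n07-GC-2, 0 of 8889 genes passed with edgeR (0%; 474 at an unadjusted p under 0.05), and between n04-Immature and n07-GC-2, 0 of 9806 did (0%; 521 at an unadjusted p under 0.05). So calls in 1 of these clusters and not in the other do not show that they differed. In nonneuronal cells 0 of 14663 genes passed with edgeR (0%; 1819 at an unadjusted p under 0.05), 55 passed with the replicate number as a block, and 400 passed without the trained female library and 0 without any of the other 5. Those 400 included S100a5 (edgeR adjusted p = 0.00775), Hspa8 (edgeR adjusted p = 0.00300) and Fosl2 (edgeR adjusted p = 0.00522). Without that library 279 gene and cluster pairs passed in neurons in place of 125, and without the occluded male library 231.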

How the data were processed

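Single cells of dissociated bulbs, with some olfactory epithelium, were captured with the 10x Chromium kit; per the labels Cell Ranger 2.0.0, Seurat 2.2.1 and build mm10 were used. The authors deposited UMI counts per gene and cell (18560 genes, not normalized) and a metadata table with library and cluster names; 1123 barcodes without annotation were not used. The study states that doublets were removed, and no caller was run. A few annotated neurons of n11-GC-5 held many hemoglobin UMIs, and 1 cell of n17-M/TC-3 held many Gad1 and Gad2 UMIs. Whether these cells are doublets was not tested. The mitochondrial fraction per cell was taken from the same table, as deposited. Counts were summed per cluster and library. edgeR 4.0.16 (R 4.3.3) fitted all 6 libraries as 3 groups with TMM factors and filterByExpr, in clusters with at least 20 cells per library, and tested trained minus occluded with glmQLFTest at an adjusted p of 0.05. Cell numbers were tested with neurons per library as offset; the study's chi-square test was not used because cells are not replicates. The robust fit was run first and its counts were seen before edgeR's default was taken. Depth and mitochondrial share were compared with exact permutation tests. Fits were tested on simulated data. Alternatives included DESeq2 1.42.0, RLE factors, cell filters (1000 UMIs, 20% mitochondrial), a replicate block and leaving out each library. Named genes were the 3 largest changes per cluster among calls of one direction in both replicates, the 10 genes called in the most clusters, called members of 33 gene lists and a few cell type and activity genes. Members and lists were chosen with earlier results of these data known. Promoters came from RefSeq (GRCm38.p6).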

Additional observations from a re-analysis of the deposited data

Results flagged for a closer look

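In 5 clusters the share moved one way in the male pools and the other way in the female pools; the difference between the sexes was not tested, since each sex has 1 library a group. The log2 ratio of trained over occluded was -0.13 in males and 0.67 in females for n01-OSNs. It was -0.66 and 0.19 for n02-PGC-1, -0.29 and 1.02 for n07-GC-2, -0.76 and 0.039 for n09-GC-3, and -0.33 and 2.03 for n15-M/TC-1, the last with 17 and 6 occluded and 23 and 20 trained cells.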

How the results depend on the processing

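Of the 125 gene calls, RLE size factors kept 123, no filter on low counts 108 and leaving out mitochondrial and sensory neuron genes changed the total to 117. The robust fit was run first and called 147, and edgeR's default was taken as the primary test after the robust counts were seen. S100a5 was called in 2 clusters by the robust fit in place of 6. The cause of the low DESeq2 counts was not tested. The replicate number also marks the sex of the pools. Deviations of libraries that share a number correlated at -0.0141 to 0.19 in neuron clusters, over 0.1 for all 3 pairs of groups in n04-Immature alone, and at 0.238 to 0.365 in nonneuronal cells; the primary test has no block, and the block raised the count to 222 and kept 115 of the 125. Genes of n01-OSNs could not be fitted under 20% mitochondrial UMIs, since 0 cells were left in the occluded female library. With 2 pools a group and 20 or more cells per library, low genes rest on few UMIs. Of the log2 ratios of shares, these changed sign: with cells under 20% mitochondrial UMIs n01-OSNs at -0.49, n02-PGC-1 at 0.037, n05-PGC-2 at 0.11, n12-GC-6 at 0.074 and n18-EPL-IN at 0.02, with cells with at least 1000 UMIs n02-PGC-1 at 0.27, n05-PGC-2 at 0.10, n09-GC-3 at 0.029, n11-GC-5 at 0.16, n12-GC-6 at 0.27 and n18-EPL-IN at 0.40, with TMM on cell numbers n05-PGC-2 at 0.047 and with n01-OSNs and n13-AstrocyteLike left out of the denominator n05-PGC-2 at 0.001. Of the log2 ratios of shares, these came to pass: with DESeq2 n06-Transition at 0.95 and n13-AstrocyteLike at 1.14, with TMM on cell numbers n06-Transition at 1.19 and n13-AstrocyteLike at 1.41, with cells under 20% mitochondrial UMIs n06-Transition at 1.24, with a denominator of adult-born clusters n06-Transition at 1.11 and with n01-OSNs and n13-AstrocyteLike left out of the denominator n06-Transition at 1.12. Of the log2 ratios of shares, these no longer passed: with only the 4 libraries compared n03-GC-1 at -1.46 and n10-GC-4 at -1.09, with cells with at least 1000 UMIs n03-GC-1 at -0.96, n10-GC-4 at -0.69 and n14-GC-7 at 0.72, with the replicate number as a block n10-GC-4 at -1.07, with DESeq2 n10-GC-4 at -1.09, with TMM on cell numbers n10-GC-4 at -0.85, with cells under 20% mitochondrial UMIs n10-GC-4 at -1.07 and n14-GC-7 at 1.67, with a denominator of adult-born clusters n10-GC-4 at -0.94 and with n01-OSNs and n13-AstrocyteLike left out of the denominator n10-GC-4 at -0.93. Counts of called genes moved by over 1.5 times in single clusters. With the replicate number as a block they were 7 in n01-OSNs, 20 in n02-PGC-1, 30 in n03-GC-1, 8 in n04-Immature, 50 in n07-GC-2, 3 in n09-GC-3, 66 in n11-GC-5, 3 in n12-GC-6, 2 in n14-GC-7, 55 in nonneuronal cells and 222 in all 14 clusters. With no filter on low counts they were 2 in n01-OSNs, 27 in n03-GC-1, 28 in n04-Immature, 37 in n07-GC-2, 0 in n09-GC-3, 1 in n10-GC-4, 67 in n11-GC-5, 7 in n12-GC-6, 8 in n13-AstrocyteLike, 4 in n14-GC-7, 20 in nonneuronal cells and 216 in all 14 clusters. With only the 4 libraries compared they were 2 in n01-OSNs, 8 in n02-PGC-1, 1 in n03-GC-1, 0 in n04-Immature, 0 in n05-PGC-2, 3 in n06-Transition, 19 in n11-GC-5, 0 in n12-GC-6, 8 in n13-AstrocyteLike, 2 in n14-GC-7, 2 in n17-M/TC-3 and 61 in all 14 clusters. With DESeq2 they were 0 in n01-OSNs, 3 in n02-PGC-1, 2 in n03-GC-1, 2 in n04-Immature, 0 in n05-PGC-2, 1 in n06-Transition, 2 in n07-GC-2, 0 in n09-GC-3, 11 in n11-GC-5, 0 in n12-GC-6, 2 in n13-AstrocyteLike, 0 in n14-GC-7, 2 in n17-M/TC-3 and 25 in all 14 clusters. With cells with at least 1000 UMIs they were 4 in n01-OSNs, 4 in n04-Immature, 0 in n06-Transition, 1 in n07-GC-2, 2 in n09-GC-3, 6 in n13-AstrocyteLike, 0 in n14-GC-7 and 2 in n17-M/TC-3. With the robust quasi-likelihood fit they were 10 in n01-OSNs, 2 in n04-Immature, 2 in n09-GC-3 and 0 in n14-GC-7. With cells under 20% mitochondrial UMIs they were 4 in n04-Immature, 2 in n05-PGC-2, 3 in n06-Transition, 4 in n07-GC-2, 1 in n10-GC-4, 1 in n13-AstrocyteLike and 4 in n17-M/TC-3. With adjustment over all clusters together they were 4 in n04-Immature. With mitochondrial and sensory neuron genes left out they were 4 in n17-M/TC-3. With cells with 20 or more Gad1 and Gad2 UMIs left out they were 2 in n17-M/TC-3. Without the trained female pool the total was 279, without the occluded male pool 231 and without the trained male pool 94. Over the fits that left out 1 library each, the count ranged from 2 to 37 in n01-OSNs, from 10 to 28 in n02-PGC-1, from 1 to 54 in n03-GC-1, from 0 to 55 in n04-Immature, from 2 to 23 in n05-PGC-2, from 3 to 23 in n06-Transition, from 5 to 37 in n07-GC-2, from 0 to 9 in n09-GC-3, from 0 to 5 in n10-GC-4, from 7 to 40 in n11-GC-5, from 4 to 23 in n12-GC-6, from 3 to 44 in n13-AstrocyteLike, from 1 to 8 in n14-GC-7, from 8 to 36 in n17-M/TC-3, from 0 to 400 in nonneuronal cells and from 94 to 279 in all 14 clusters; for differences between clusters it ranged from 0 to 2 (n03-GC-1 and n07-GC-2) and from 0 to 3 (n04-Immature and n07-GC-2). Of the share calls, n14-GC-7 held in all 6 of these fits, n03-GC-1 in 3 and n10-GC-4 in 2. n08-PGC-3 and n13-AstrocyteLike came to pass in 2 of them each. The log2 ratio of the share ranged from -0.19 to 0.73 in n01-OSNs, from -1.69 to -1.18 in n03-GC-1, from -0.43 to 0.083 in n05-PGC-2, from -0.072 to 0.83 in n07-GC-2, from -1.47 to -0.58 in n08-PGC-3, from -0.94 to 0.19 in n09-GC-3, from -1.48 to -0.72 in n10-GC-4, from 0.13 to 1.73 in n13-AstrocyteLike and from -0.005 to 1.67 in n15-M/TC-1. Of single genes, only log2 fold changes without a call changed sign: under 20% mitochondrial UMIs Omp in n07-GC-2 was at -0.073, and with at least 1000 UMIs S100a5 was at -0.029 in n06-Transition and -0.026 in n10-GC-4. Leaving out 1 library, ranges that crossed 0 were -0.001 to 1.161 for Omp in n04-Immature, -1.055 to 0.357 for Omp in n06-Transition, -0.029 to 0.702 for Penk in n07-GC-2, -0.209 to 3.99 for S100a5 in n05-PGC-2, -0.51 to 1.489 for S100a5 in n10-GC-4 and -0.34 to 0.049 for Tpbg in n12-GC-6. Beside those given in the report, these called log2 values moved by over 1.5 times: without the trained male pool Egr1 in n13-AstrocyteLike to 1.30, Hba-a1 in n13-AstrocyteLike to -1.13, Hspa8 in n07-GC-2 to 0.57, Nr4a1 in n11-GC-5 to 0.65, Pcdh17 in n12-GC-6 to 0.72 and Zmym1 in n07-GC-2 to 1.07; without the trained female pool Cplx2 in n17-M/TC-3 to 0.61; without the occluded male pool E530001K10Rik in n05-PGC-2 to 4.56 and Pcdh17 in n12-GC-6 to 0.61; without the occluded female pool Malat1 in n14-GC-7 to -1.08 and Pcdh17 in n12-GC-6 to 1.75.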
